A study of Mus musculus with 6 samples.

Results

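The genes described here encode 9 receptors that receive signals from nerves and hormones in the heart: the adrenergic receptors Adrb1, Adra1a and Adra1b, the angiotensin receptor Agtr1a, the endothelin receptors Ednra and Ednrb, the muscarinic receptor Chrm2, the adenosine receptor Adora1 and the neurotensin receptor Ntsr2. They were taken as receptors that set contractility and hypertrophy, with Ntsr2 added as a receptor that is lower after loss of PTIP. Of the 9 genes, 4 had probe sets tied by the platform annotation to that gene alone, namely Adra1b, Agtr1a, Ednrb and Ntsr2. These 4 genes have 6 probe sets among 45037 tested, and they stand among 18193 genes measured in the same way. Adrb1, Adra1a, Ednra, Chrm2 and Adora1 were not analysed here. The set was chosen by receptor role and, for Ntsr2, by its log2 difference between knockout and control mice, with all these results known, so the differences of the 4 receptors are described here without a test.

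The RNA was extracted from left ventricular apex of 6 mice, all females of 8 weeks and littermates on a mixed C57B6 and B6129 background, with 1 Affymetrix array per mouse. The 3 PTIP KO mice paired 1 floxed with 1 null copy of Paxip1, the gene of PTIP, and carried Cre recombinase fused to a modified estrogen receptor under the alpha-MHC promoter. The 3 PTIP+ mice, the controls, paired 1 floxed with 1 wild-type copy, and no Cre is named for them. Both groups received tamoxifen at 20 mg/kg, and hearts were taken 5 days after injection, although another label describes treatment for 5 days. Cre, the null allele and the induced deletion therefore differ between the groups together and cannot be told apart. In the sample descriptions PTIP KO 3 and all controls carry like numbers, which the other knockout mice do not. That split runs partly along the groups. Deletion is driven in cardiomyocytes, while endothelial cells, fibroblasts and the other cells of the apex keep the floxed allele.

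All 4 receptors belong to the G protein-coupled receptors, which cross the cell membrane and pass a signal to a G protein inside. Adra1b, Agtr1a, the endothelin receptors and the neurotensin receptors signal mainly through G proteins of the Gq family, which activate phospholipase C and raise calcium. This branch is a classical driver of cardiomyocyte growth, while Chrm2 and Adora1 act through the Gi/o family to slow the heart and to oppose adrenergic drive. PTIP works with methyltransferases that place methyl groups on lysine 4 of histone H3, a mark found near the start sites and enhancers of active genes.

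The start-site regions of the receptors are shown because that mark lies at such sites, although no histone mark was measured here. RefSeq windows of the assembly GRCm38.p6 were found for Ntsr2, Ednrb and Adra1b, of which Adra1b has 2. The stretches of Ntsr2 and Adra1b that lie outside the annotated gene are printed 5′ to 3′ on the strand of the gene. Capitals mark E-boxes (CANNTG) in Ntsr2 and CCAAT boxes in Adra1b.
Ntsr2 (chr12:16653220-16653442, plus strand): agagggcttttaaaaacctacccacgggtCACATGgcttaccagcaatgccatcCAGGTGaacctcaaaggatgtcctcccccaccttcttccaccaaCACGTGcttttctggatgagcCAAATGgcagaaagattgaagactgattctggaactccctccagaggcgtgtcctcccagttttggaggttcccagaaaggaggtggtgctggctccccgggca
Adra1b (chr11:43901251-43901487, minus strand): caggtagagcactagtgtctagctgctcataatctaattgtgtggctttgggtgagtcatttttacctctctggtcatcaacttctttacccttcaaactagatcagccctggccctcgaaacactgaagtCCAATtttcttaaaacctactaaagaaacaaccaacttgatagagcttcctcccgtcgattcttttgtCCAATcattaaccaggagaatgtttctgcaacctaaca

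The 250 bases before the start of Ntsr2 held 4 matches to the E-box, of which 1 is also CACGTG. E-boxes occur in 66.2% of 32851 RefSeq windows of the same length, and CACGTG in 6.02%. The Ntsr2 window held 4 CpG dinucleotides and 55.2% G and C, near the middle of all windows (44.4% of windows have as many CpG or fewer). The Ednrb window held 11 CpG and 2 CCAAT boxes, a motif found in 33.8% of windows. The 2 Adra1b windows differed from each other, the first with 3 CpG and 41.6% G and C, and the other with 22 CpG and 72.8% G and C. The second of these held 1 GC box (GGGCGG), found in 32.7% of windows. None of the 4 windows held a match to the TATA box (TATAAA, 12.4% of windows) or to the cAMP response element (TGACGTCA, 1.55% of windows). Both strands were searched, and a match is only a description of the letters.

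Values are log2 expression, so a difference of 1 is a 2-fold difference, and a level is not compared between probe sets of different genes. In the PTIP KO ventricles Ntsr2 was clearly lower, Ednrb slightly lower and Agtr1a slightly higher, while the controls varied too widely in Adra1b to show a difference. In the limma fit over all probe sets, 1 of the 4 receptors, Ntsr2, had an adjusted p under 0.05, where 0.286% of all genes did. Ntsr2 was taken for this fall, so nothing is read from that count. The same holds for the counts and the median that follow, which include Ntsr2. The groups did not overlap in 3 of the 4 genes, against 16.0% of all genes. Of these 3 genes, 2 were lower and 1 higher in the knockout mice. Of all 18193 genes, 6.57% were lower without overlap and 9.44% were higher without overlap. By sign 3 receptors were lower and 1 higher in the knockout mice, with a median difference of -0.42, beside a median of 0.02 over all genes.

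**Figure D1:**
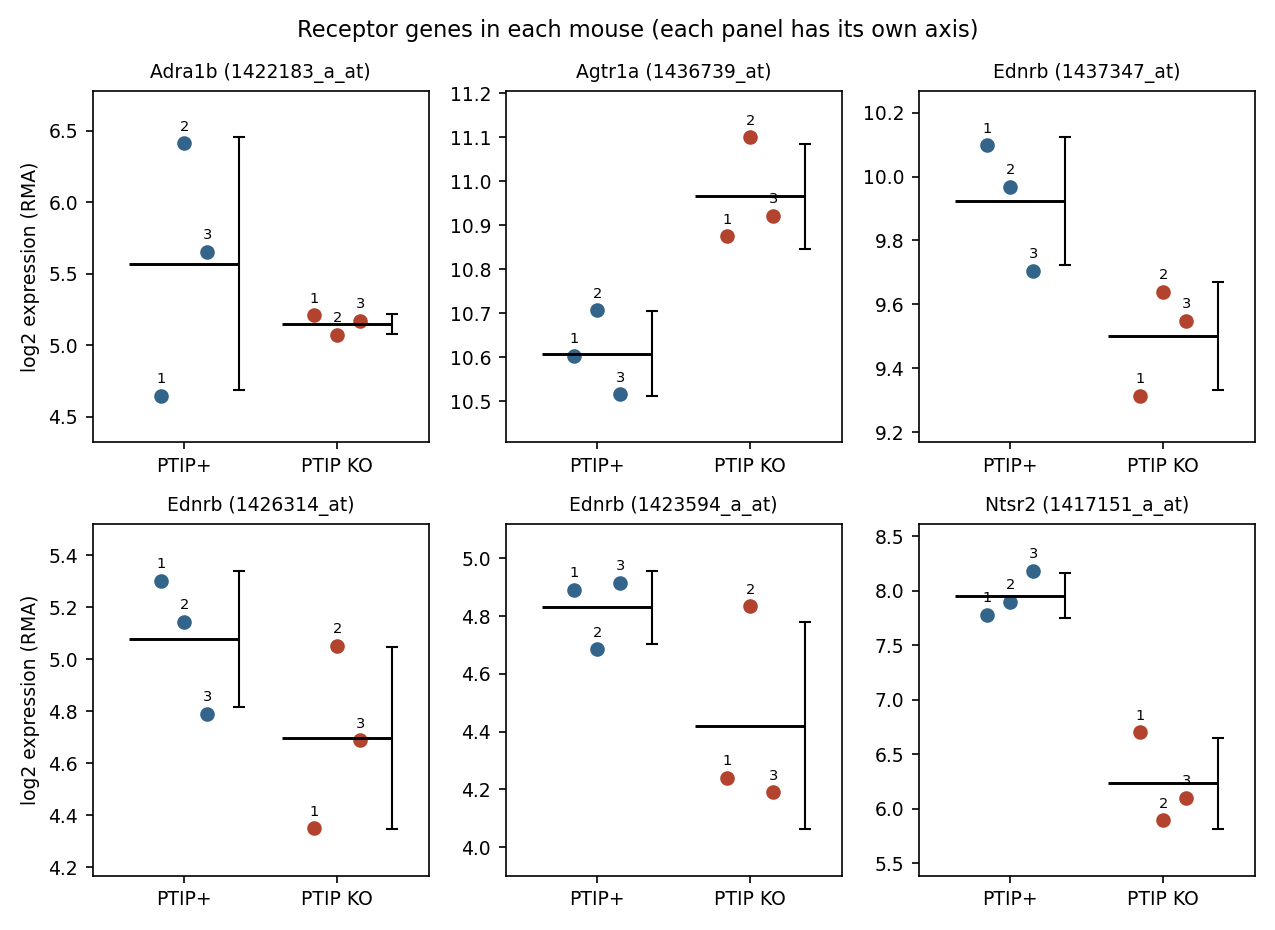
Log2 expression of the 6 probe sets of Adra1b, Agtr1a, Ednrb and Ntsr2 in each mouse, with points numbered by mouse, horizontal lines for group means and bars for 1 SD (n = 3 per group). The groups are apart for Ntsr2, Agtr1a and the Ednrb probe set 1437347_at, and overlap in the other 3 panels.

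Ntsr2 encodes a neurotensin receptor known mainly from the brain. Its probe set 1417151_a_at read 6.70, 5.89 and 6.10 in PTIP KO mice 1, 2 and 3. In PTIP+ mice 1, 2 and 3 it read 7.78, 7.90 and 8.19. Every knockout mouse was below every control, and the nearest mice of the 2 groups, PTIP KO 1 and PTIP+ 1, were 1.08 apart. The means were 6.23 ± 0.42 and 7.96 ± 0.21 (SD, n = 3 each), a difference of -1.72 (SE 0.22), or 3.30-fold lower. Among all 18193 genes, 12 had a difference this low or lower, Ntsr2 included. The mean level over the 6 mice lay above 65.7% of all probe sets. Leaving out any single mouse kept the difference between -1.96 and -1.55, but in none of these 6 fits did a receptor have an adjusted p under 0.05. Ntsr2 has no other single-gene probe set on the array, so the difference rests on 1 set of probes.

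**Figure D2:**
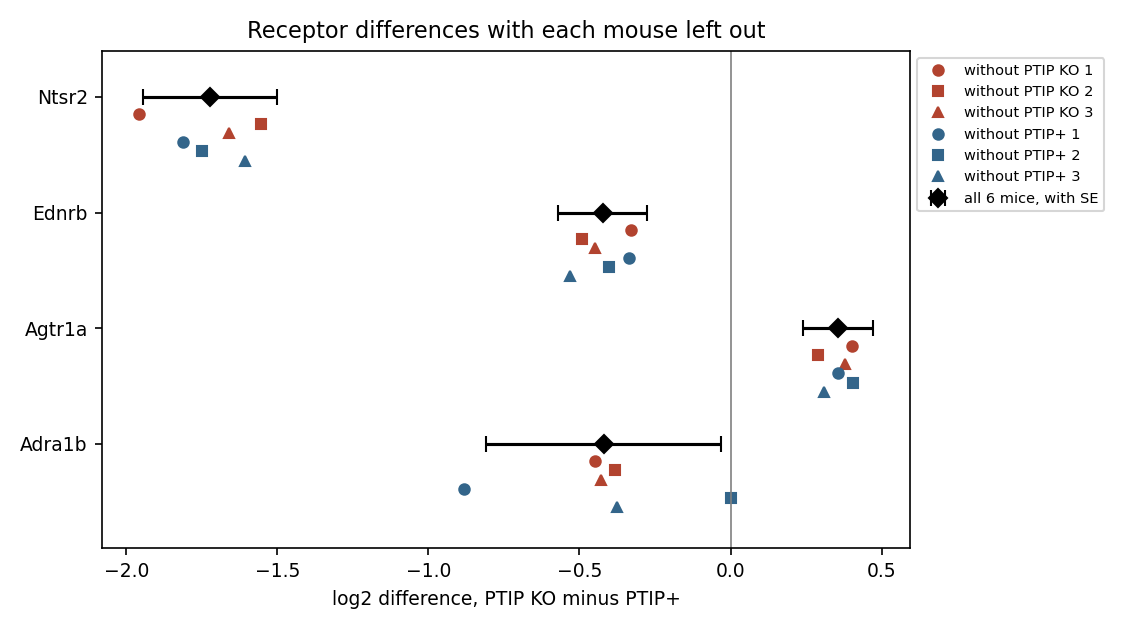
Log2 difference (PTIP KO minus PTIP+) of each receptor with all 6 mice (diamonds, bars for 1 SE) and with each mouse left out in turn (coloured symbols). Ntsr2 stays between -1.96 and -1.55, while Adra1b moves from -0.88 without PTIP+ 1 to 0.00 without PTIP+ 2.

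The rest of the neurotensin system was measured in full. None of its 4 genes passed in either direction, and 1 was lower at an unadjusted p under 0.05. Nts, which encodes the peptide neurotensin, had means of 7.16 ± 0.19 in PTIP KO and 6.94 ± 0.34 in PTIP+ mice (SD, n = 3 each, limma adjusted p = 0.821). Ntsr1, the receptor with high affinity for neurotensin, was dim, with 2.78 ± 0.15 against 2.62 ± 0.13 (SD, n = 3 each). Sort1, which encodes sortilin, a neurotensin-binding sorting receptor, differed by -0.14 (SE 0.10) on its brightest probe set and by 0.11 and 0.05 on the others. Sorl1, of the same family, differed by -0.58 (SE 0.18, limma adjusted p = 0.384), with 3 of 3 knockout mice below all controls on that probe set. Its other probe sets differed by -0.38 and -0.46, with overlapping groups.

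The genes next to Ntsr2 on the chromosome, taken by their order in the RefSeq gene table after the values were seen, did not pass either. Of the 3 protein-coding genes on each side, 5 were measured. They differed by between -0.35 (Trib2) and 0.68 (Greb1, SE 0.34, limma adjusted p = 0.625). Greb1 is the immediate neighbour on one side, and Lpin1, the immediate neighbour on the other, differed by 0.16 (SE 0.10). Around Adra1b, Ednrb and Agtr1a all 6 such neighbours were measured and none passed, with differences of -0.07 to 0.13, -0.38 to 0.23 and -0.55 to -0.05.

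The genes whose values over the 6 mice were most like those of Ntsr2, among 11060 brighter named genes, were Kcnip2 (Pearson r = 0.998), Ddhd1 (0.997), Eaf2 (0.991), Zcchc8 (0.991) and Metrnl (0.989). These correlations describe 6 points that fall into 2 groups, so they mostly pick genes that are lower in the knockout mice. Kcnip2, an accessory subunit of the transient outward potassium channel, had its lowest value in PTIP KO 2 and its highest in PTIP+ 3, the same mice as Ntsr2.

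Ednrb encodes the endothelin B receptor, which in vessels sits mainly on endothelial cells, where it releases nitric oxide and clears endothelin. The brightest probe set, 1437347_at, read 9.31, 9.64 and 9.55 in PTIP KO mice 1, 2 and 3. In PTIP+ mice 1, 2 and 3 it read 10.10, 9.97 and 9.71. The groups did not overlap, but PTIP KO 2 and PTIP+ 3 were only 0.07 apart. The means were 9.50 ± 0.17 and 9.92 ± 0.20 (SD, n = 3 each), a difference of -0.42 (SE 0.15), or 1.34-fold lower. The other probe sets, 1426314_at and 1423594_a_at, lay below the median of all probe sets and had nearly the same difference, -0.38 (SE 0.21) and -0.41 (SE 0.19). On both of them PTIP KO 2, at 5.05 and 4.83, was above the lowest control, which read 4.79 and 4.69. The sign was thus shared by all 3 probe sets, and PTIP KO 2 was the highest knockout mouse on each. Leaving out 1 mouse at a time gave -0.53 to -0.33 on the brightest probe set.

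None of the 6 endothelin ligands and enzymes passed in the limma fit, and the median difference was 0.06. On the brightest probe set of each gene 1 of them, Mme, was lower at an unadjusted p under 0.05. Edn1, which encodes the main cardiac endothelin, had means of 6.61 ± 0.12 in PTIP KO and 6.63 ± 0.08 in PTIP+ mice (SD, n = 3 each). Its difference of -0.02 (SE 0.11) turned positive without PTIP KO 1, without PTIP+ 1, with array weights and with centred arrays. Mme, neprilysin, which breaks down endothelin and natriuretic peptides, differed by -0.47 (SE 0.20, limma adjusted p = 0.549) and on its dimmer probe set by -0.85 (SE 0.19, limma adjusted p = 0.215). The groups did not overlap on either Mme probe set. Ece2, an endothelin-converting enzyme, differed by 0.19 (SE 0.18) on its brightest probe set. On its dimmer one it differed by 0.61 (SE 0.26, limma adjusted p = 0.549), and the groups overlapped on both.

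The summed level of the endothelial markers overlapped between the groups. As log2 of the sum over 8 genes it was 13.2 to 13.3 in PTIP KO and 13.1 to 13.3 in PTIP+ mice. By mean 5 of the 8 were higher and 3 lower, and none passed. Cdh5 was lower without overlap on its brightest probe set, by -0.16 (SE 0.10), while each of the others overlapped on its brightest. In bulk tissue, fewer cells of a type and less RNA per cell cannot be told apart.

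Agtr1a encodes the main angiotensin II receptor of the mouse, found in the heart on fibroblasts and mural cells as well as on cardiomyocytes. Its only probe set, 1436739_at, read 10.87, 11.10 and 10.92 in PTIP KO mice 1, 2 and 3. In PTIP+ mice 1, 2 and 3 it read 10.60, 10.71 and 10.52. All knockout mice were above all controls, with 0.17 between the nearest mice. The means were 10.97 ± 0.12 and 10.61 ± 0.10 (SD, n = 3 each), a difference of 0.36 (SE 0.12), or 1.28-fold higher. Without any single mouse the difference was 0.29 to 0.41. The probe set was bright, above 93.7% of all probe sets. Fibroblast markers had a summed level of 13.7 to 13.8 in both groups, and mural markers 14.0 to 14.1 in both, with no gene of the 8 and 9 passing.

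In the rest of the angiotensin system 9 of 12 genes were measured and none passed, while 1, Agt, was lower at an unadjusted limma p under 0.05. Agt, which encodes angiotensinogen, the precursor of the hormone, read 5.61, 5.55 and 5.53 in PTIP KO mice 1, 2 and 3, beside 6.11, 6.13 and 6.23 in the PTIP+ mice. The groups were well apart, with a difference of -0.59 (SE 0.10), but the limma adjusted p was 0.109. It passed with array weights (limma adjusted p = 0.0480), and its adjusted p ranged from 0.0395 to 0.878 over the settings that kept all 6 mice or the 4 arrays with like description numbers. The lowest came from averages per gene, adjusted over genes rather than probe sets, where the difference was the same -0.59. Agt and Agtr1a, the precursor and the receptor, thus had opposite signs. Mas1, the receptor for a shorter angiotensin peptide, differed by 0.30 (SE 0.15) with overlapping groups. The other angiotensin II receptors, named after their values were seen, were dim or varied among the controls. Agtr1b read 2.14 ± 0.20 against 2.09 ± 0.29, and Agtr2 read 5.65 ± 0.08 against 5.96 ± 0.91 (SD, n = 3 each).

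Adra1b encodes the alpha-1B adrenergic receptor, which binds noradrenaline and couples to Gq in cardiomyocytes. Its only probe set, 1422183_a_at, read 5.21, 5.08 and 5.17 in PTIP KO mice 1, 2 and 3. In PTIP+ mice 1, 2 and 3 it read 4.65, 6.41 and 5.66. The knockout mice were tightly grouped and lay inside the range of the controls. The means were 5.15 ± 0.07 and 5.57 ± 0.88 (SD, n = 3 each), a difference of -0.42 (SE 0.39). That difference was 0.00 without PTIP+ 2 and -0.88 without PTIP+ 1, so these controls decide its value. The gap between actin probe sets at the 3′ and the 5′ end, larger in more degraded RNA, was 1.85 log2 units in PTIP+ 1, the lowest control in Adra1b, and 1.17 in PTIP+ 2, the highest. It was 1.38 in PTIP+ 3 and 1.45 to 1.64 in the knockout mice. The part of RNA quality in the spread of Adra1b was not tested.

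Other adrenergic genes gave no call. Of 6 further adrenergic receptors only Adra2c, a receptor that limits noradrenaline release from nerves, was listed in the annotation table used, the other 5 were not analysed here, and Adra2c was dim, with 4.13 ± 0.10 against 3.99 ± 0.09 (SD, n = 3 each). Among 8 measured genes of catecholamine synthesis, uptake and breakdown none passed, and the median difference was -0.02. On the brightest probe set of each gene none passed at an unadjusted limma p under 0.05 either. Ddc, a gene of this list, differed by -0.34 (SE 0.27) with overlap on its brightest probe set. On its dimmer probe set, 1430591_at, it differed by -0.89 (SE 0.23, limma adjusted p = 0.280) without overlap. Th, which encodes the first enzyme of the pathway, was dim and differed by 0.28 (SE 0.12). Slc6a2, the noradrenaline transporter of nerve endings, was dim as well and differed by 0.31 (SE 0.19).

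The muscarinic and adenosine branches were measured without Chrm2 and Adora1 themselves. None of 8 muscarinic and acetylcholine genes passed, also at an unadjusted limma p under 0.05, and 7 of the 8 lay below the median of all probe sets. Slc5a7, the choline transporter, differed by -0.26 (SE 0.15) and Chat, which makes acetylcholine, by 0.11 (SE 0.16). Adora3, the only other adenosine receptor listed in the annotation table used, differed by -0.17 (SE 0.17).

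Rgs7, a protein of the R7 family that speeds the shutdown of Gi/o signals, fell in the knockout ventricles. It was the only one of 124 measured genes in the 11 lists of ligands, other receptors and signalling partners to pass. Of all genes 0.286% passed. No gene of these lists was higher with an adjusted p under 0.05. At an unadjusted limma p under 0.05 there were 17 lower and 5 higher, 22 of 124, where 9.27% of all genes passed that threshold. The lists were chosen with earlier results of these data known, so nothing is read from these counts. The median difference over the 124 genes was -0.03. In the list that holds Rgs7, receptor desensitisation, 13 of 14 genes were measured. By mean 10 of them were lower and 3 higher, and 4 were lower at an unadjusted limma p under 0.05. The Rgs7 probe set 1450659_at read 4.81, 4.59 and 5.03 in PTIP KO mice 1, 2 and 3. In PTIP+ mice 1, 2 and 3 it read 6.28, 6.22 and 6.08. The groups were well apart, with means of 4.81 ± 0.22 and 6.19 ± 0.10 (SD, n = 3 each), a difference of -1.38 (SE 0.14, limma adjusted p = 0.0299). Without any single mouse the difference was -1.49 to -1.27, but Rgs7 no longer passed (limma adjusted p from 0.0739 to 0.135). Over the other settings its adjusted p ranged from 0.00846 to 0.756, and it also missed the threshold with the replicate block (0.171) and without moderation (0.264).

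**Figure D3:**
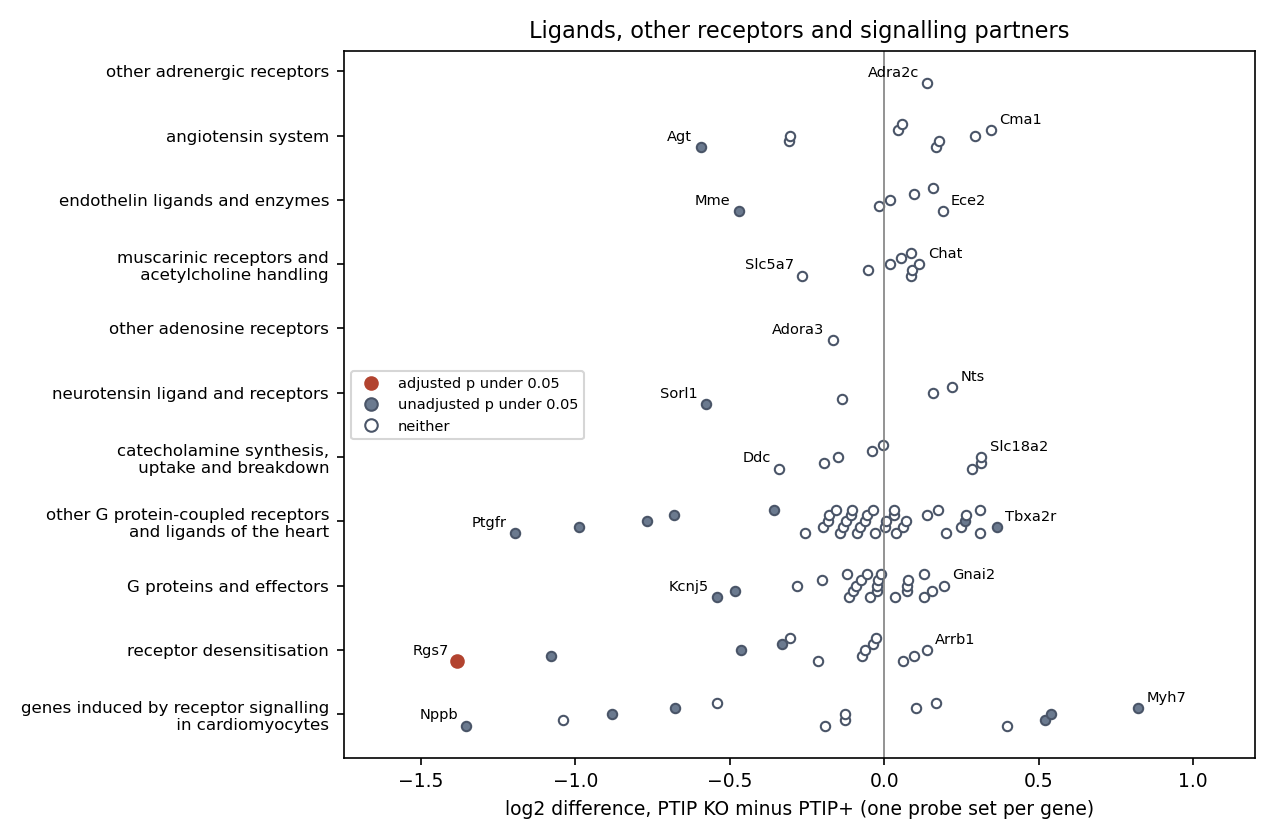
Log2 difference (PTIP KO minus PTIP+) of 124 measured genes in 11 lists of ligands, other receptors and signalling partners, one point per gene, with the lowest and highest of each list named. Rgs7, at -1.38, is the only red point, which marks an adjusted p under 0.05, and grey points mark an unadjusted p under 0.05.

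Rgs6, a close relative that limits the response of the heart to acetylcholine, was chosen for mention after its values were seen. Its probe set 1452399_at read 5.18, 5.03 and 5.76 in PTIP KO mice 1, 2 and 3, beside 6.42, 6.41 and 6.38 in the PTIP+ mice. That is a difference of -1.08 (SE 0.19, limma adjusted p = 0.121), and the dimmer probe set 1427340_at differed by -1.49 (SE 0.24, limma adjusted p = 0.0898). Neither passed, and on both every knockout mouse was below every control. The other R7 proteins and their partners were also looked up afterwards, and the groups overlapped in each. Rgs9 and Rgs11, both dim, had differences of 0.19 (SE 0.16) and -0.08 (SE 0.21), and the binding partners Gnb5 and Rgs7bp of -0.07 (SE 0.18) and 0.02 (SE 0.17), each at its brightest probe set.

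None of 23 G proteins and effectors passed, 2 were lower at an unadjusted limma p under 0.05, and the median difference was -0.02. Kcnj5, a subunit of the potassium channel opened by acetylcholine and adenosine, differed by -0.54 (SE 0.12, limma adjusted p = 0.214) on its bright probe set and by 0.24 on its dim one, 1421762_at, both without overlap. The mean of both Kcnj5 probe sets differed by -0.15 (limma adjusted p = 0.718). Kcnj3, the other subunit of that channel, named after its values were seen, differed by 0.15 (SE 0.12). Gnaq and Gna11, also named afterwards, the Gq proteins used by Adra1b, Agtr1a, the endothelin receptors and Ntsr2, had differences of -0.01 (SE 0.11) and 0.08 (SE 0.10) at the brightest of their probe sets. Gna12, of another G protein family, differed by -0.48 (SE 0.13, limma adjusted p = 0.301) without overlap on its brightest probe set, and the groups overlapped on its 4 others.

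**Figure D4:**
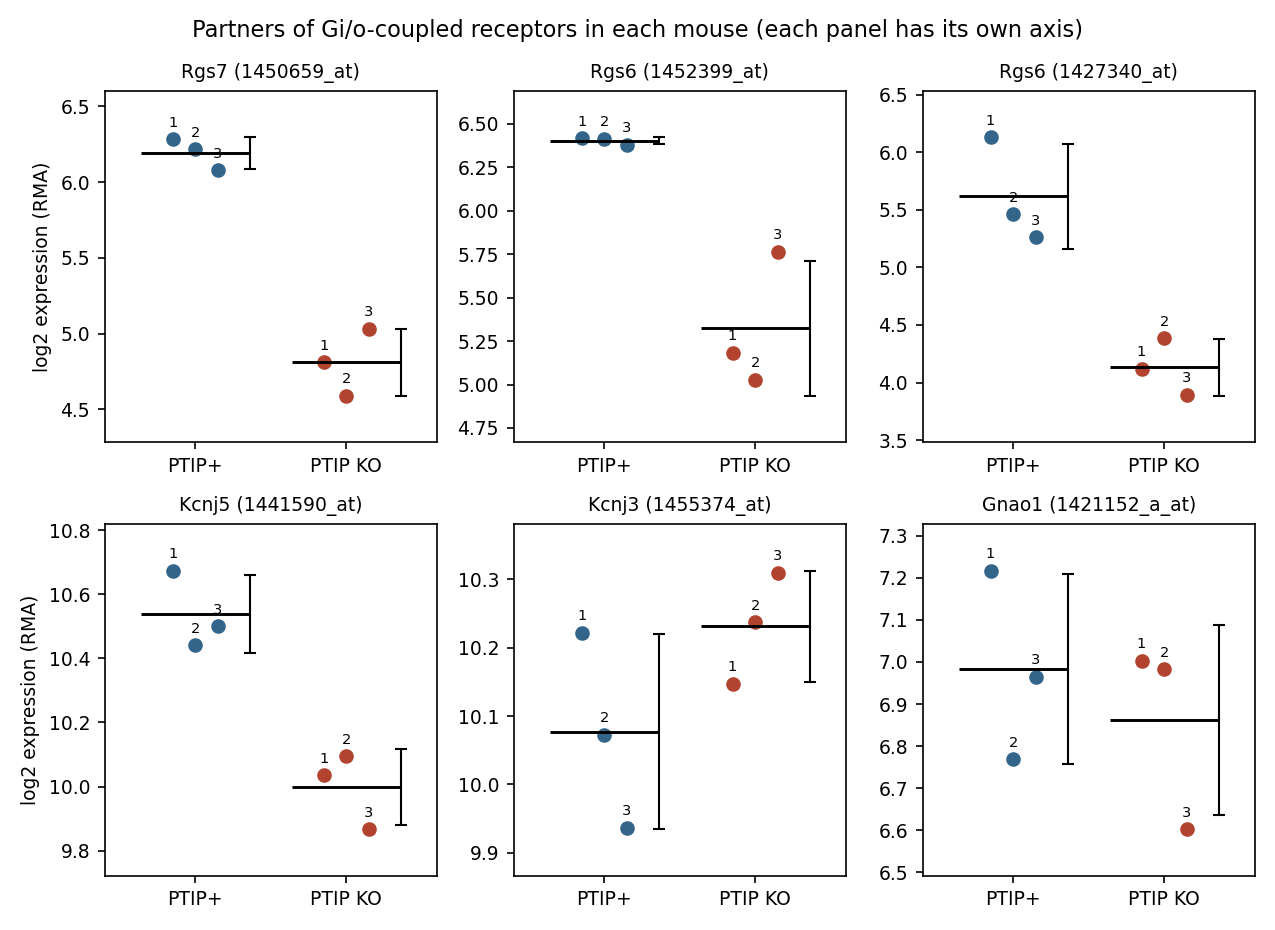
Log2 expression of Rgs7, Rgs6 (2 probe sets), Kcnj5 (its bright probe set), Kcnj3 and Gnao1 in each mouse, with lines for group means and bars for 1 SD (n = 3 per group). The groups are apart in the panels of Rgs7, Rgs6 and Kcnj5 and overlap in those of Kcnj3 and Gnao1.

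Among 37 other receptors and ligands of the heart none passed, with 5 lower and 2 higher at an unadjusted limma p under 0.05 and a median difference of -0.06. Ramp1, which turns the calcitonin receptor-like receptor into a receptor for the vasodilator CGRP, had means of 7.12 ± 0.36 and 8.11 ± 0.42 (SD, n = 3 each) and differed by -0.99 (SE 0.25, limma adjusted p = 0.280). The dimmer Ramp1 probe set 1431413_at was 2.01-fold lower (limma adjusted p = 0.0901), again without overlap, while the dimmest, 1447474_at, differed by -0.28 with overlapping groups. Ptgfr, the Gq-coupled receptor for prostaglandin F, differed by -1.20 (SE 0.33, limma adjusted p = 0.318). Its 4 other probe sets were also lower, by between -1.12 and -0.33. The mean of all 5 passed (-0.83, limma adjusted p = 0.0268) in a fit of averages per gene, adjusted over genes rather than probe sets.

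Genes known to be induced by these receptors in cardiomyocytes gave no call among 14 measured, with 3 lower and 3 higher at an unadjusted p under 0.05. Nppb, a natriuretic peptide, differed by -1.35 (SE 0.26, limma adjusted p = 0.160) and Ankrd1, a stretch-responsive nuclear protein, by -0.68 (SE 0.16, limma adjusted p = 0.226). The mean of both Ankrd1 probe sets passed, at -1.12 (limma adjusted p = 0.0393), in the fit of averages adjusted over genes. Over the whole list 8 genes were lower and 6 higher by mean, with differences from -1.35 to 0.82 and a median of -0.13.

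All 8 cardiomyocyte markers were bright, with means between 12.7 and 13.7, and their summed level was 16.3 in every mouse. Macrophage markers moved with the groups. Their summed level was 11.39 to 11.70 in PTIP KO and 11.85 to 11.99 in PTIP+ mice, all 6 genes had a lower mean in the knockout mice, and none passed. The 4 mesothelial markers were lower by mean as well, at 8.26 to 10.02 against 9.12 to 9.94, with overlap. Of 8 markers of Schwann cells and nerve 6 were measured, with a summed level of 9.12 to 9.45 against 9.23 to 9.45. By mean 4 of the 6 were higher and 2 lower, and none passed. Uchl1, the brightest of them, differed by -0.15 (SE 0.17). On their brightest probe sets Sox10, Gfap and Th were higher without overlap, by 0.54 (SE 0.19), 0.18 (SE 0.11) and 0.28 (SE 0.12). The other Sox10 probe sets differed by 0.51 without overlap and 0.10 with overlap, and those of Gfap by 0.07 and -0.09 with overlap. Atrial markers summed to 9.09 to 9.46 against 8.80 to 10.25, highest in PTIP+ 1, and 2 adipocyte markers to 5.55 to 6.23 against 5.29 to 5.68. The part of macrophages, mesothelium or Schwann cells in the receptor differences was not tested.

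**Figure D5:**
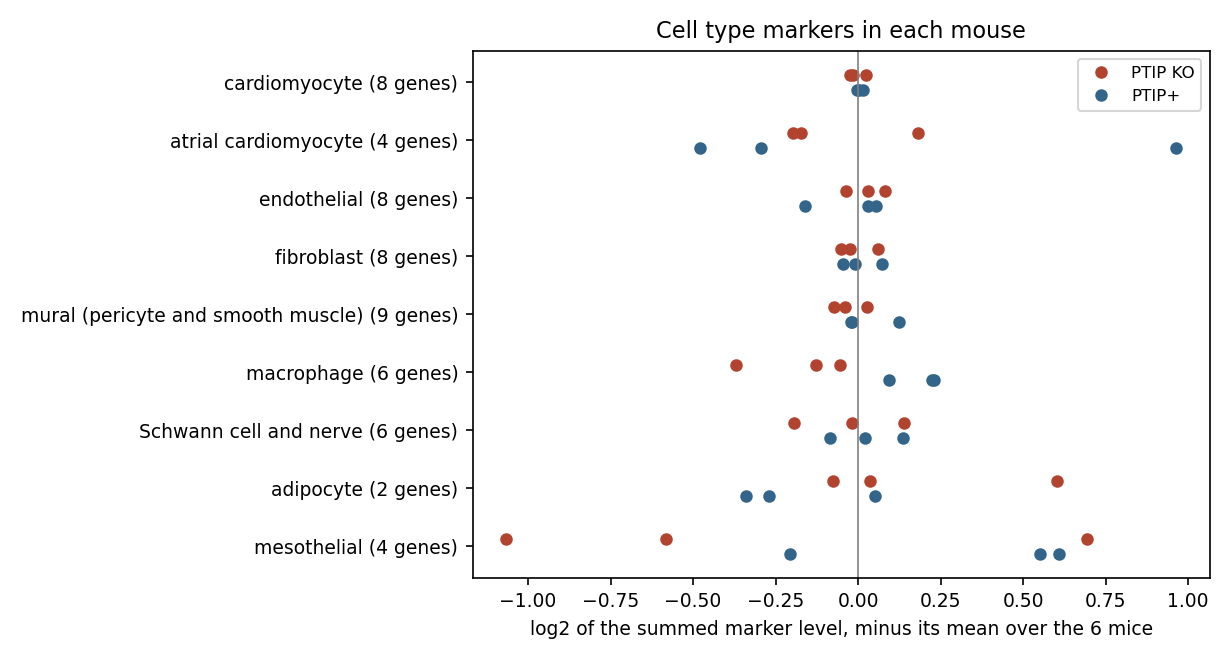
Log2 of the summed level of each list of cell type markers in each mouse, minus the mean over the 6 mice. The macrophage markers are lower in all 3 PTIP KO mice than in all 3 PTIP+ mice, and the groups overlap for the other lists.

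Paxip1 checked the labels. Its 4 probe sets differed by between -1.83 and -0.95, and 3 of them passed (limma adjusted p from 0.0240 to 0.0377). No knockout mouse reached a control on any of them (exact permutation p = 0.1, the lowest possible with 3 mice a group). The arrays had correlations of 0.989 to 0.995 and medians of 5.15 to 5.26.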

How the data were processed

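The deposited table holds log2 expression values that the authors made with RMA, per the submitters' processing notes. The log base was read from the range of the values, and no RMA version is given there. RMA makes arrays alike in distribution and compresses differences of dim probe sets. Per the labels, target was made with the NuGen Ovation system.

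The table has 45101 probe sets, and the 64 array controls among them were dropped. In the platform annotation 34945 of the rest have a single gene, 932 several and 9160 none. Current symbols came from the RefSeq table of GRCm38.p6 by Entrez number (34741 found). The probe set with the highest mean stood for its gene. Differences, KO minus control, come from lmFit and eBayes of limma 3.58.1 (R 4.3.3), two-sided, with Benjamini-Hochberg adjustment over all tested probe sets, and called at an adjusted p under 0.05. The fit was tested on simulated data.

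The receptors, lists and tests were chosen with earlier results of these data known. Named genes are all receptors of the set and every passing gene of a list, or the 2 with the smallest p. Agt, Edn1, Nts, Ntsr1 and Sort1 were always named, as were 5 genes most like Ntsr2. Another gene due to be always named was not analysed here. Agtr1b, Agtr2, Gnaq, Gna11, Gnao1, Kcnj3, Rgs6, its relatives and partners, and the neighbouring genes were named after their values were seen. So were Ddc, Cdh5, Sox10, Gfap and Uchl1. The replicates are separate mice, and their number limits the precision.

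The fit was repeated with array weights, a robust prior, a variance trend, dim probe sets dropped, renewed quantile normalization, median centring, the replicate number as a block, each mouse left out, 4 arrays with like description numbers (PTIP KO 3 and all controls), genes as averages over their probe sets, a threshold of 0.1 and no moderation of the variance. Averages were adjusted over genes, and the fit without dim probe sets over those kept, so both adjust over fewer tests than the main fit.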

Additional observations from a re-analysis of the deposited data

How the results depend on the processing

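The differences of the 4 receptors kept their sign in all 9 settings other than leaving out a mouse, with ranges of -1.86 to -1.68 for Ntsr2, -0.43 to -0.33 for Ednrb, 0.31 to 0.40 for Agtr1a and -0.66 to -0.38 for Adra1b. With 1 mouse left out at a time the ranges were -1.96 to -1.55, -0.53 to -0.33, 0.29 to 0.41 and -0.88 to 0.00. The count of receptors with an adjusted p under 0.05, 1 in the reported fit, was 0 with a robust prior, with the replicate number as a block, in the 4 arrays with like description numbers and without moderation of the variance, and 0 to 0 with any 1 mouse left out. The count of lower genes over the 11 lists, 1 as reported, was 0 under the last 3 of these settings and 0 to 0 with 1 mouse left out. It was 2 with array weights (Agt and Rgs7). With probe sets averaged per gene and adjusted over genes it was 5 (Agt, Ptgfr, Rgs6, Rgs7 and Ankrd1). No list gene was higher with a call in any setting. With limma, the replicate block left 0 genes called in all (1342 at an unadjusted p under 0.05), as did the 4 arrays (866) and the fit without moderation (1679), and with the block Rgs7 had an adjusted p of 0.171. Same-numbered mice did not deviate together (correlations of -0.15, -0.08 and -0.01). These 3 values, from deviations around means of 3 mice, cannot exclude that the numbers pair the mice. In the 4 arrays with like description numbers PTIP KO 3 is assumed to vary like the controls. The representative probe set of Paxip1, not called as reported at -0.95, passed with array weights (-1.07) and was -1.11 to -0.80 with 1 mouse left out. The mean over all Paxip1 probe sets, adjusted over genes, passed at -1.47. The cause of these changes was not tested. Centring the arrays on their medians moved the median difference of all genes from 0.02 to 0.06.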
